A study of Mus musculus with 8 samples.

Results

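Complex I (NADH:ubiquinone oxidoreductase) was followed in inguinal white adipose tissue (ING WAT) through every protein-coding gene whose listed symbol begins with Nduf. The rule found 45 genes among the 38374 genes of the FPKM table. They comprised 36 subunit genes, 7 assembly factor genes (*Ndufaf1* to *Ndufaf7*), *Ndufa4* and its paralogue *Ndufa4l2*. ING WAT of C57BL/6j mice was sequenced as poly(A)+ RNA at postnatal day 21 (PN21, the day of weaning, mice m1, m49, m138 and m145) and at postnatal day 98 (PN98, young adulthood, mice m35, m106, m114 and m125), with 1 library per mouse and 4 mice per age. The labels give no genotype other than the strain and no treatment. The paper states that the diet fed up to weaning was replaced before PN98 by another diet, a western style diet in part of the mice. Which of these the sequenced PN98 mice had is not given in the sources used here. Diet therefore differed between the ages, and differences by age and by diet cannot be told apart. Every library held transcripts of the Y-linked gene *Ddx3y* (18.1 to 25.9 FPKM) with *Xist* at or below 0.832 FPKM, as in male mice. *Adipoq* and *Fabp4*, which mark adipocytes, were abundant in all 8 libraries (*Adipoq* 1257, 1279, 817 and 947 FPKM at PN21 and 2696, 2512, 3653 and 2769 FPKM at PN98).

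Complex I is the entry point for electrons from NADH into the mitochondrial respiratory chain, where it passes them to ubiquinone and pumps protons across the inner membrane. It has a matrix arm, which carries the flavin and the iron-sulfur clusters, and a membrane arm, which pumps. The conserved core subunits do the catalysis, the supernumerary subunits surround and stabilise them, and assembly factors help to build the complex without remaining in it. The core of the membrane arm is encoded by the mitochondrial genome and the other subunits by nuclear genes, so that building the complex needs transcripts of both genomes. In adipose tissue, brown and beige adipocytes are rich in mitochondria, and white adipocytes hold fewer.

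FPKM counts sequenced fragments relative to the length of the transcript and to all mapped fragments of the library. It is thus a level per length. It was summed here over the transcripts of each gene, and ranks of abundance between genes are ranks of this sum. In some genes most of the sum lay in short transcripts not typed as protein_coding. In *Ndufa3*, 96.2% came from a transcript of 343 bases. Levels of different genes are therefore to be compared with caution. Differences between ages are given as log2 fold changes, the mean of log2(FPKM + 1) at PN98 minus that at PN21, so that a negative value means a lower level at PN98. All tests are from limma over the 16102 genes whose FPKM averaged 1 or more, and adjusted p is the Benjamini-Hochberg value over all of these genes. Values of single mice are listed in the order m1, m49, m138 and m145 for PN21 and m35, m106, m114 and m125 for PN98. Nothing in the labels ties mice of different age to each other. In whole tissue, fewer cells of a type and less RNA per cell cannot be told apart.

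Promoter sequences were set beside the expression values because most members differed in the same direction between mice. Of the 45 members, 39 had a window in the RefSeq promoter table (GRCm38.p6, 250 bases before to 50 bases after the start of transcription). Motifs were searched as exact letters on both strands. The NRF1 motif CGCATGCG was in the windows of 4 of 39 members (10.3%) and of 2.07% of all 27025 genes of the table. The ETS motif CCGGAAG, of the type bound by GABPA, was in those of 5 members (12.8%) against 9.93% of all genes. The short YY1 motif AAGATGG was in those of 7 members (17.9%) against 7.28% of all genes, and 5 of the 7 also held its longer form AAGATGGCG (12.8% of members, 1.64% of all genes), which contains the short form. The shares are a description, and no test was made of them. The shares of all genes include genes that were not expressed here, whereas every member was, and no share over expressed genes alone is given.

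In all 7 members with AAGATGG the motif lay on the sense strand and began 23 to 39 bases after the start. A motif so placed, on that strand and within the 50 bases after the start, was found in 1.54% of all genes. The motif contains ATG, the letters of a start codon of translation. Whether these sites are start codons, and whether YY1 binds them, was not tested. These 7 sites are shown with the motif in capitals, 30 bases each, 5′ to 3′, because their place after the start was shared among these members:
Ndufa3 (chr7:3617384-3617413, plus strand): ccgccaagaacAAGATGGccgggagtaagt
Ndufa9 (chr6:126849097-126849126, minus strand): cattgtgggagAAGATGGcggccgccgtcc
Ndufb8 (chr19:44555393-44555422, minus strand): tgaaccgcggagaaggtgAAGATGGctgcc
Ndufc1 (chr3:51408915-51408944, minus strand): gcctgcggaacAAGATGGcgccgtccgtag
Ndufs4 (chr13:114388045-114388074, minus strand): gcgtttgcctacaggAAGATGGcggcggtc
Ndufs6 (chr13:73328433-73328462, minus strand): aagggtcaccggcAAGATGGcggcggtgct
Ndufs7 (chr10:80249462-80249491, plus strand): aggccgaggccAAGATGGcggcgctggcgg
The letters after the motif differed, with AAGATGG followed by cg in the 5 members of the longer form and by cc or ct in *Ndufa3* and *Ndufb8*.

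The NRF1 and ETS motifs lay mainly before the start. The next 6 stretches of 60 bases end at or before the start and are shown because they hold these motifs upstream, with NRF1 in capitals in *Ndufa8*, *Ndufa11* and *Ndufaf4* and ETS in capitals in *Ndufs3*, *Ndufaf1* and *Ndufb7*:
Ndufa8 (chr2:36049339-36049398, minus strand): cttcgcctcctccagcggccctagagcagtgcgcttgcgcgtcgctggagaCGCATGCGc
Ndufa11 (chr17:56717677-56717736, plus strand): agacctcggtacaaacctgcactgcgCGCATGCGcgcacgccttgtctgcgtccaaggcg
Ndufaf4 (chr4:24897945-24898004, plus strand): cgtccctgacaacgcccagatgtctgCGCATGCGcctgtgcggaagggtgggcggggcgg
Ndufs3 (chr2:90904722-90904781, minus strand): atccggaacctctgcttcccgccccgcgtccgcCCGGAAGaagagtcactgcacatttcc
Ndufaf1 (chr2:119662835-119662894, minus strand): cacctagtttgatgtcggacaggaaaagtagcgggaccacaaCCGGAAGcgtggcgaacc
Ndufb7 (chr8:83566698-83566757, plus strand): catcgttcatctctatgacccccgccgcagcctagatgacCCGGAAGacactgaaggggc
The first base of the motif lay at −9 in *Ndufa8*, −59 in *Ndufa11*, −112 in *Ndufaf4*, −27 in *Ndufs3*, −18 in *Ndufaf1* and −20 in *Ndufb7*, counted from the start. The ERRA motif TCAAGGTCA was in no member's window (0.466% of all genes) and its shorter form AAGGTCA in 3 (7.69%, against 5.38%). The SP1 motif GGGCGG was in 20 members (51.3%, against 38.2% of all genes) and the TATA motif TATAAA in 4 (10.3%, against 15.7%).

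All 45 members were above the filter, with means over the 8 mice from 11.5 FPKM (*Ndufaf5*) to 1039 FPKM (*Ndufa4*). The log2 fold change was negative in all 45, whereas 67.0% of all genes tested were lower at PN98. No member had an adjusted p under 0.05 (limma), against 2.94% of all genes that were lower with such a p, and 11 members were lower with an unadjusted p under 0.05, against 19.0% of all genes. A share of 11 in 45 (24.4%) is thus near that of all genes. The lowest adjusted p was 0.0971 (*Ndufs8*), and the 11 members had adjusted p-values up to 0.182.

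The median log2 fold change of the 45 members was −0.53, with a range from −0.91 (*Ndufs8*) to −0.07 (*Ndufa1*), and the median over all genes tested was −0.21. The level of all genes depended on the scaling: with the nuclear genes of every mouse brought to an equal FPKM sum, the median over all genes was 0.01, and with median of ratios scaling it was −0.02. Under these scalings the members' medians were −0.26 and −0.30, 7 and 4 of the 45 were higher and the others lower (51.0% and 48.7% of all genes were higher), and none had an unadjusted p under 0.05 (8.97% and 11.6% of all genes were lower with such a p). Relative to the median of all genes, the members therefore lay 0.31 lower as deposited, 0.27 lower with scaling to nuclear genes and 0.28 lower with median of ratios scaling, all on the log2 scale.

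**Figure D1:**
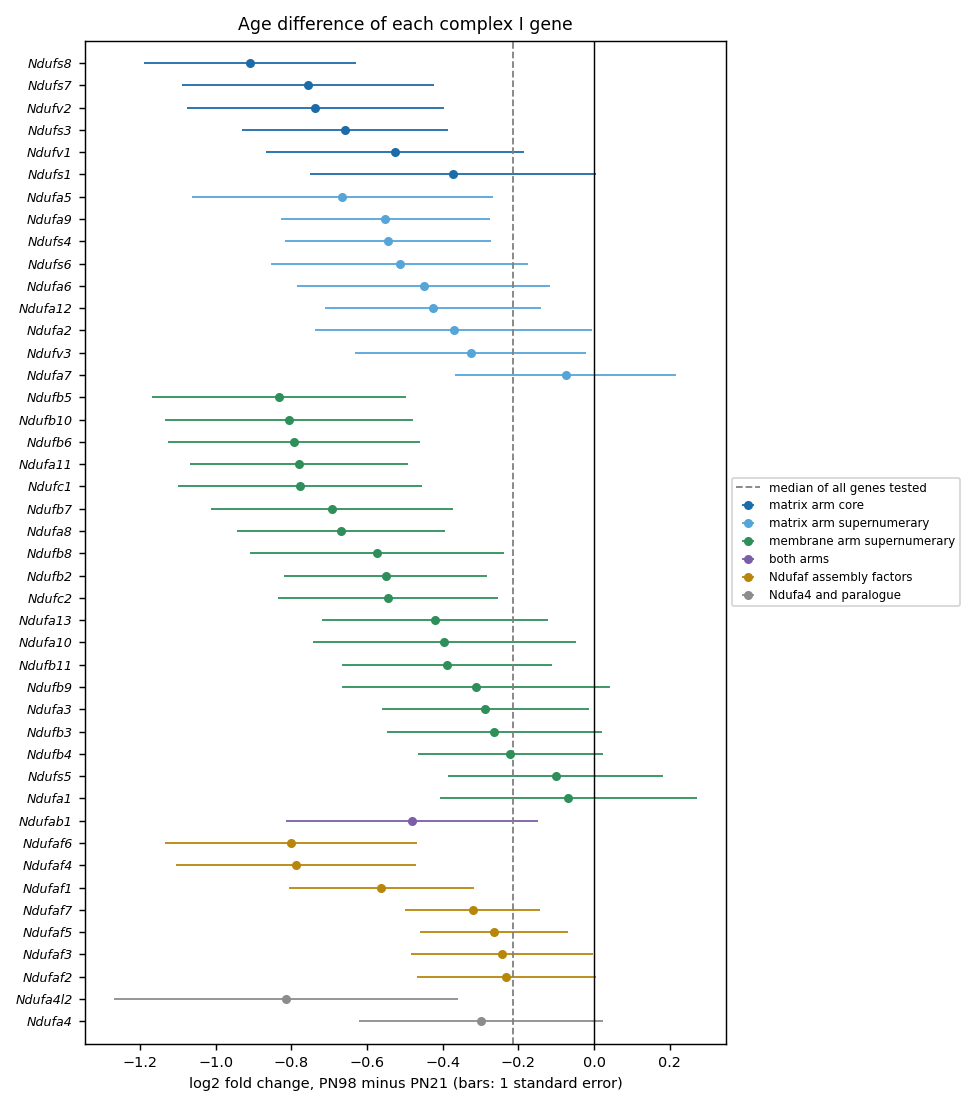
Log2 fold change (PN98 minus PN21, 4 mice per age) of 44 of the 45 complex I genes, with bars of 1 standard error and colours for the role of the gene. All points lie left of 0, from −0.91 (Ndufs8) to −0.07 (Ndufa1), and the dashed line marks the median of all genes tested (−0.21).

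The mice of each age did not form tight groups. No member separated the ages, with every mouse of one age beyond every mouse of the other, against 16.1% of all genes that did so in either direction. At PN98, m35 was the lowest mouse in 42 of the 45 members and m125 the highest in 42. Over all genes tested the pattern was different, with m35 the lowest PN98 mouse in 19.2% and m125 the highest in 14.0%. Likewise, m35 was the lowest of all 8 mice in 40 members, against 8.1% of all genes. Mouse m125, which was the lowest of all 8 mice in 38.1% of all genes, was so in 1 member (*Ndufa4l2*).

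At PN21, m138 was the lowest mouse in 43 members, against 21.0% of all genes, and m145 was the highest in 33, against 27.8%. Relative to the PN21 mean of each gene, the median of the 45 members was −0.04, 0.21, −0.51 and 0.35 in the PN21 mice and −1.06, −0.49, −0.58 and 0.04 in the PN98 mice, on the log2 scale. Mouse m138 at PN21 thus lay at about the level of m106 and m114 at PN98, and m125 at PN98 at about the PN21 mean. The 4 PN98 mice stood in the same order, m35, m114, m106 and m125 from low to high, in 28 of the 45 members. Within an age, the median standard deviation of log2(FPKM + 1) over the members was 0.41 at PN21 and 0.49 at PN98, against 0.30 and 0.36 over all genes tested.

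**Figure D2:**
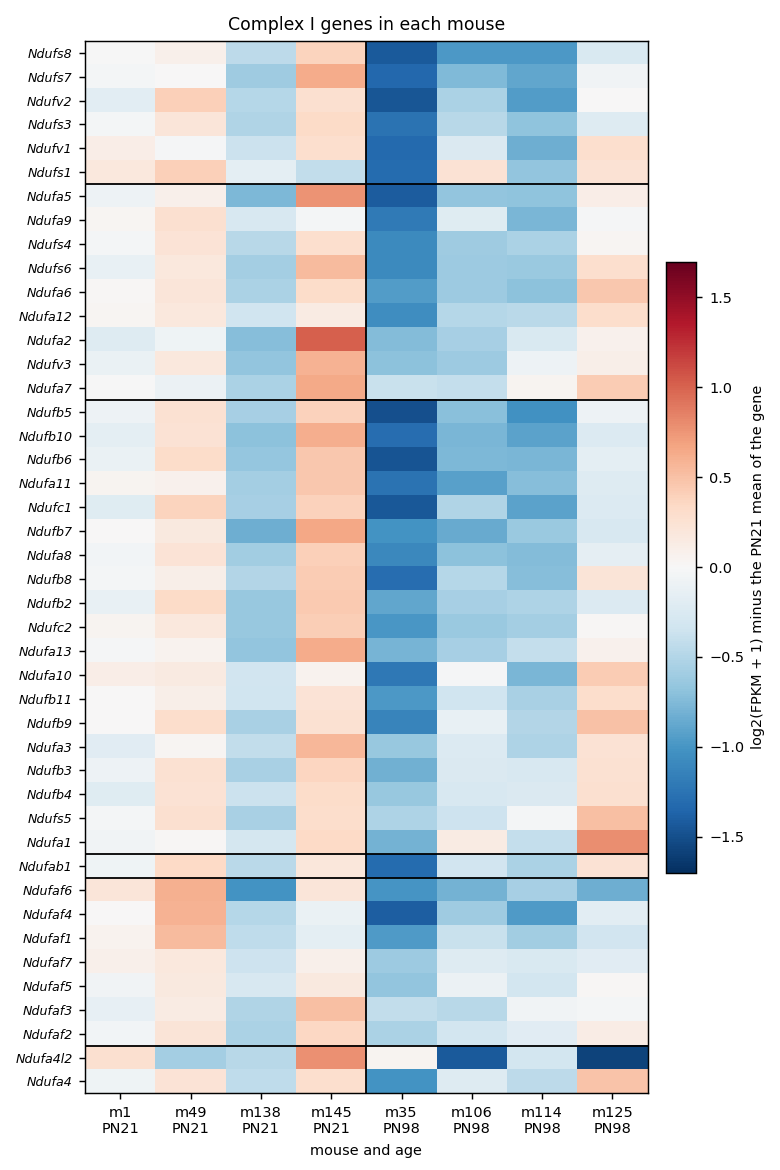
Log2(FPKM + 1) of 44 of the 45 complex I genes (rows, grouped by role with black lines) in each of the 8 mice (columns), minus the PN21 mean of the gene. Of all 45 genes, 44 lie below the PN21 mean in m35 and 19 in m125, and Ndufa4l2 is lowest in m125.

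Single mice decided how many members passed an unadjusted p under 0.05. The count of 11 became 25 without m125 (13.0% of all genes), 20 without m138 (14.3%), 3 without m106 (11.9%), 2 without m35 (30.3%), 2 without m114 (13.9%) and 1 each without m1 (16.0%), m49 (15.0%) or m145 (13.9%), all of them lower at PN98. The median log2 fold change of the members lay between −0.72 (without m125) and −0.32 (without m35), where the median of all genes was −0.15 and −0.27. Without m35 the members thus lay 0.05 below the median of all genes, and 25 of the 45 were below it, compared with 42 of 45 with all mice. With mice weighted by limma's arrayWeights, *Ndufs8*, *Ndufa11*, *Ndufa8* and *Ndufa4l2* had an adjusted p under 0.05 (21.7% of all genes were lower with such a p), and without m138 *Ndufaf6* had (0.972% of all genes were lower with such a p).

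The 7 core subunit genes of the matrix arm were the group with the lowest median, −0.74 (range −0.91 to −0.37). Of the 7, *Ndufs8* and *Ndufs3* were lower with an unadjusted p under 0.05 (19.0% of all genes). *Ndufs8* (chr19:3908863-3912774, mm10) encodes a subunit that carries iron-sulfur clusters on the path of electrons to ubiquinone. It stood at 179.5, 191, 132 and 234 FPKM at PN21 and at 66.2, 91.5, 90.9 and 151 FPKM at PN98. Its means were 184 ± 41.9 and 99.96 ± 36.1 FPKM (SD, n = 4), a log2 fold change of −0.91 ± 0.28 (SE) with an adjusted p of 0.0971. Mice m35, m106 and m114 were below all PN21 mice, and m125 lay between m138 and m1. All of its FPKM came from a single transcript typed protein_coding.

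*Ndufs7*, a core subunit at the site where ubiquinone is bound, stood at 269, 278, 181 and 426 FPKM at PN21 and 109, 164, 149 and 264 FPKM at PN98, a log2 fold change of −0.76 ± 0.33 (adjusted p 0.186). Mice m35, m106 and m114 were below every PN21 mouse, and m125 was within the PN21 range. These levels came mostly from transcripts that GENCODE vM21 does not type as protein_coding, which held all but 2.02% of the FPKM.

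*Ndufs3*, a core subunit next to the ubiquinone site, stood at 385, 455, 277 and 496 FPKM at PN21 and 165, 284, 244 and 337 FPKM at PN98 (log2 fold change −0.66 ± 0.27, adjusted p 0.169). Protein_coding transcripts held 0.81% of its FPKM, and with these alone its log2 fold change was 0.11. *Ndufv1*, which binds NADH and the flavin, had 661 ± 121 FPKM at PN21 and 493 ± 235 FPKM at PN98 (SD, n = 4), a log2 fold change of −0.53 ± 0.34. Its partner in NADH oxidation, *Ndufv2*, had a log2 fold change of −0.74 ± 0.34. *Ndufs1*, the largest iron-sulfur subunit, was the core gene with the smallest difference (136, 158, 107 and 89.6 FPKM at PN21, 47.8, 142, 74.5 and 142 FPKM at PN98, log2 fold change −0.37 ± 0.38). In *Ndufs1*, m106 and m125 lay above 3 of the 4 PN21 mice, and m35 and m114 lay below all 4.

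The 9 supernumerary genes of the matrix arm had a median of −0.45 (range −0.67 to −0.08), and none had an unadjusted p under 0.05. *Ndufa5* had the lowest value and a wide spread, at 616, 696, 383 and 1109 FPKM at PN21 and 243, 409, 405 and 709 FPKM at PN98 (log2 fold change −0.67 ± 0.40, adjusted p 0.298). *Ndufa9*, which sits where the arms join, stood at 212, 249, 171 and 202 FPKM at PN21 and 89.3, 178, 120.0 and 205 FPKM at PN98 (log2 fold change −0.55 ± 0.28). *Ndufs4*, a subunit whose loss in mice gives a model of Leigh syndrome, stood at 108, 131, 79.6 and 135 FPKM at PN21 and 51.9, 73.0, 76.1 and 114.01 FPKM at PN98 (log2 fold change −0.55 ± 0.27). In each of these 3 genes m35 was the lowest of the 8 mice and m125 was within the PN21 range.

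*Ndufa7* was the matrix arm gene with the smallest difference, at 571, 535, 392 and 890.0 FPKM at PN21 and 439, 432, 592 and 769.5 FPKM at PN98 (log2 fold change −0.08 ± 0.29), and its direction turned to 0.19 with scaling to nuclear genes and 0.16 with median of ratios scaling. *Ndufv3*, an accessory subunit at the NADH end, came next to it in size (299.9 ± 106.2 FPKM at PN21, 234 ± 63.8 FPKM at PN98, log2 fold change −0.33 ± 0.31). *Ndufs6*, *Ndufa6*, *Ndufa12* and *Ndufa2* had log2 fold changes of −0.51, −0.45, −0.43 and −0.37. In *Ndufa2*, m145 stood at 690.4 FPKM and the other PN21 mice at 207 to 326 FPKM. *Ndufab1*, the mitochondrial acyl carrier protein that is part of both arms, had 336 ± 77.3 FPKM at PN21 and 252 ± 107 FPKM at PN98 (log2 fold change −0.48 ± 0.33).

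The 19 nuclear genes of the membrane arm, all supernumerary, had a median of −0.55 and the widest range among the roles (−0.83 to −0.07). Of these, 6 were lower with an unadjusted p under 0.05 (19.0% of all genes), namely *Ndufb5*, *Ndufb10*, *Ndufb6*, *Ndufa11*, *Ndufc1* and *Ndufa8*. *Ndufb5* stood at 314, 401, 224 and 439 FPKM at PN21 and 117, 203, 162 and 314 FPKM at PN98 (log2 fold change −0.83 ± 0.33, adjusted p 0.161). *Ndufb10* stood at 605, 809.7, 419 and 1041 FPKM at PN21 and 277, 395, 360.2 and 579 FPKM at PN98 (log2 fold change −0.81 ± 0.33, adjusted p 0.165), and *Ndufb6* at 297, 397, 202 and 440.4 FPKM at PN21 and 115, 188, 186 and 285 FPKM at PN98 (log2 fold change −0.79 ± 0.33, adjusted p 0.173). In these 3 membrane arm subunits, m35, m106 and m114 were below m138, the lowest PN21 mouse, and m125 was within the PN21 range.

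*Ndufa11*, *Ndufc1* and *Ndufa8* had log2 fold changes of −0.78 ± 0.29, −0.78 ± 0.32 and −0.67 ± 0.28, with adjusted p-values of 0.139, 0.17 and 0.168. *Ndufc1*, *Ndufa8* and *Ndufa11* are 3 of the genes whose promoter stretches are shown above. *Ndufb8*, whose protein commonly stands for complex I in immunoblots of the respiratory chain, was the second most abundant member. It stood at 1058, 1157, 763 and 1456 FPKM at PN21 and 438, 772, 653 and 1252 FPKM at PN98. Its means of 1109 ± 286 and 779 ± 345 FPKM (SD, n = 4) gave a log2 fold change of −0.57 ± 0.34 with an adjusted p of 0.289. The groups overlapped, since m125 exceeded m1, m49 and m138, and only m35 and m114 were below all PN21 mice.

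*Ndufa1* and *Ndufs5* were at the other end of the membrane arm genes. *Ndufa1* is a small X-linked subunit (chrX:37187588-37191163), and it stood at 318, 337, 268 and 418 FPKM at PN21 and 189, 365, 249.8 and 576 FPKM at PN98 (log2 fold change −0.07 ± 0.34). With m125 above and m35 and m114 below every PN21 mouse, its mean FPKM was slightly higher at PN98 (345 ± 170.4) than at PN21 (335 ± 62.4), although the mean of the log2 values was lower. *Ndufs5* stood at 227, 281, 158 and 286 FPKM at PN21 and 160.4, 182, 226 and 329.9 FPKM at PN98 (log2 fold change −0.10 ± 0.28). Both turned positive with scaling to nuclear genes, to 0.20 and 0.17, and with median of ratios scaling, to 0.16 and 0.13. *Ndufa3*, the third most abundant member (mean 686 FPKM), had a log2 fold change of −0.29 ± 0.27, and the other 9 membrane arm genes lay between −0.69 (*Ndufb7*) and −0.22 (*Ndufb4*).

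The 7 assembly factors were among the members with the lowest levels, from 11.5 to 34.9 FPKM in the mean, and had a median of −0.32 (range −0.80 to −0.23). *Ndufaf6*, *Ndufaf4* and *Ndufaf1* were lower with an unadjusted p under 0.05 (19.0% of all genes). *Ndufaf6*, which acts early in assembly, stood at 30.6, 40.9, 12.6 and 30.7 FPKM at PN21 and 12.7, 14.7, 17.6 and 14.4 FPKM at PN98 (log2 fold change −0.80 ± 0.33, adjusted p 0.171). It differed from most members in that m114 was the highest PN98 mouse, and m138 was the lowest of all 8 mice while the other PN21 mice were above every PN98 mouse. Without m138 its log2 fold change was −1.14. Of its FPKM, 16.5% lay in protein_coding transcripts, which alone gave a log2 fold change of −0.34.

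*Ndufaf4*, which with *Ndufaf3* helps to build the ubiquinone-binding part, stood at 25.7, 39.1, 17.9 and 23.4 FPKM at PN21 and 9.04, 16.4, 12.6 and 22.5 FPKM at PN98 (log2 fold change −0.79 ± 0.32, adjusted p 0.162). *Ndufaf1*, a factor for the membrane arm, stood at 32.3, 45.2, 22.8 and 27.3 FPKM at PN21 and 15.4, 23.5, 20.2 and 24.5 FPKM at PN98 (log2 fold change −0.56 ± 0.24, adjusted p 0.182). *Ndufaf3*, the partner of *Ndufaf4*, had a log2 fold change of −0.24 ± 0.24, and the difference between these genes was not tested. *Ndufaf2*, a late assembly factor, had −0.23 ± 0.24, and both *Ndufaf2* and *Ndufaf3* turned slightly positive with scaling to nuclear genes (0.03 and 0.01). *Ndufaf7*, a methyltransferase, had −0.32 ± 0.18, and *Ndufaf5*, which modifies the *Ndufs7* protein, had −0.27 ± 0.20. The gene now named *Ndufaf8*, listed as *1810043H04Rik* and so outside the rule, had −0.28 ± 0.24.

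*Ndufa4* carries the name of a complex I subunit but belongs to complex IV, cytochrome c oxidase. It was the most abundant member, at 1042, 1288, 814 and 1338 FPKM at PN21 and 544, 941, 809 and 1539.5 FPKM at PN98 (log2 fold change −0.30 ± 0.32). Its hypoxia-induced paralogue *Ndufa4l2* stood at 19.1, 10.2, 11.02 and 27.5 FPKM at PN21 and 16.2, 5.21, 12.5 and 4.62 FPKM at PN98 (log2 fold change −0.81 ± 0.45, adjusted p 0.269). The PN98 mice of *Ndufa4l2* were in the reverse order of *Ndufa4*, with m35 highest and m125 lowest.

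Transcripts of the mitochondrial genome for complex I had no common direction between the ages. Of the 7 mt-Nd genes, which encode the proton-pumping core of the membrane arm, 2 had a negative and 5 a positive log2 fold change, with a median of 0.14 (range −0.10 for *mt-Nd1* to 0.47 for *mt-Nd4l*), and none had an unadjusted p under 0.05. With scaling to nuclear genes or median of ratios scaling all 7 were higher, with medians of 0.40 and 0.37. *mt-Nd1* stood at 5194, 7515, 5435 and 5051 FPKM at PN21 and 2695, 7943, 4042 and 9401 FPKM at PN98, and *mt-Nd4l* at 2193, 2441, 2625 and 1221 FPKM at PN21 and 1382, 4893, 1909.8 and 4940.1 FPKM at PN98. In both, m106 and m125 were above every PN21 mouse.

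Within a mouse, summed FPKM of the 7 mt-Nd genes was 2.68, 2.78, 3.68 and 2.11 times that of the 36 nuclear subunit genes at PN21 and 3.34, 6.37, 3.32 and 4.69 times at PN98. This ratio does not depend on the scaling between mice. All PN98 mice were above m1, m49 and m145 but m35 and m114 were below m138, and no test was made since the ratio is a score over the members. Relative to the PN21 mean, the nuclear subunit genes had a median of −0.53 in m106 and 0.09 in m125, on the log2 scale, where the mt-Nd genes had 0.96 and 0.92. In these same mice *mt-Co1* was listed at 0, against 6678 to 11370 FPKM in the other mice, so that values of the mitochondrial genome in m106 and m125 have to be read with care.

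**Figure D3:**
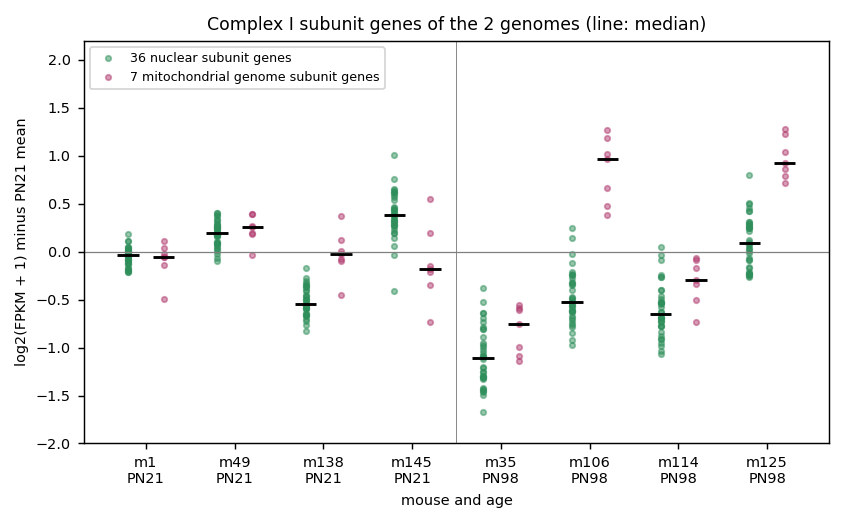
Log2(FPKM + 1) minus the PN21 mean of the gene for the 36 nuclear subunit genes (green) and the 7 mt-Nd genes (purple) of complex I in each mouse, with the median as a black line. In m106 the medians stand at −0.53 and 0.96 and in m125 at 0.09 and 0.92, whereas in m35 and m114 both medians lie below 0.

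Other complex I assembly genes were read from a list of 13, of which *Coa1* was not matched. Of 12 tested, 9 were lower (67.0% of all genes) and 3 higher, with a median of −0.23 that is close to the median of all genes. With an unadjusted p under 0.05, 1 was lower (19.0% of all genes). This was *Ecsit*, which works with *Ndufaf1* (46.2, 53.3, 33.0 and 37.5 FPKM at PN21, 17.5, 25.1, 28.0 and 34.8 FPKM at PN98, log2 fold change −0.69 ± 0.24, adjusted p 0.131). *Tmem126b*, from the same assembly complex, had the highest value, 0.23 ± 0.16. None of the 12 had an adjusted p under 0.05 (limma).

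Among 12 genes of other enzymes that reduce ubiquinone, 8 were lower (67.0% of all genes) and 4 higher, with a median of −0.37. The lowest was *Sdhb* of complex II (441, 494, 311 and 554 FPKM at PN21, 139.6, 279, 194 and 416 FPKM at PN98, log2 fold change −0.89 ± 0.35, adjusted p 0.153), and the highest was *Sqrdl*, the sulfide:quinone oxidoreductase gene, at 97.1, 101, 69.9 and 110.3 FPKM at PN21 and 131, 150.5, 131 and 167 FPKM at PN98 (0.63 ± 0.18, adjusted p 0.0875). Every PN98 mouse was above every PN21 mouse in *Sqrdl*. With unadjusted p under 0.05, 2 of the 12 were lower (19.0% of all genes) and 1 was higher. None of the 12 had an adjusted p under 0.05 (limma). Under either scaling, none was lower and 2 were higher with an unadjusted p under 0.05, and with scaling to nuclear genes *Sqrdl* had an adjusted p of 0.0403 (0.89). No share of all genes is given for these counts of higher genes.

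The 33 nuclear subunit genes of complexes III to V that were tested had a median of −0.60, near that of complex I. Of the 33, 32 were lower and 1 was higher, and 67.0% of all genes were lower. With an unadjusted p under 0.05, 9 were lower (19.0% of all genes), and 1 under either scaling (8.97% and 11.6% of all genes). None of the 33 had an adjusted p under 0.05 (limma). They ranged from −1.18 (*Atp5k*) to 0.07 (*Atp5j*). The summed FPKM of this list was lowest in m35 (10691) and highest at PN98 in m125 (26883), the same ends as for the members of complex I (6579 and 15658).

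All 7 regulators of respiratory chain genes on the list had negative log2 fold changes, with a median of −0.48. Over all genes tested, 67.0% were lower, and 19.0% were lower with an unadjusted p under 0.05. *Ppargc1b*, a coactivator of mitochondrial genes, had the lowest, at 8.58, 8.95, 10.1 and 7.94 FPKM at PN21 and 1.52, 4.67, 2.37 and 6.68 FPKM at PN98 (log2 fold change −1.17 ± 0.34, adjusted p 0.085), and *Tfam* was the other gene with an unadjusted p under 0.05 (−0.48 ± 0.17, adjusted p 0.132). *Gabpa*, which binds the ETS motif shown above, had the highest (−0.16 ± 0.25). *Nrf1* and *Yy1* had −0.45 ± 0.20 and −0.18 ± 0.20. None of the 7 had an adjusted p under 0.05 (limma), and *Gabpa* and *Yy1* turned positive under both scalings.

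Cell type markers differed between the same mice. The summed FPKM of 8 brown adipocyte markers was 3049 to 6468 at PN21 and 373, 2427, 1018 and 4238 in m35, m106, m114 and m125. *Ucp1*, the uncoupling protein of brown adipocytes, was at 544, 649.9, 586 and 559 FPKM at PN21 and 7.41, 278, 56.3 and 356 FPKM at PN98, so that its PN98 mice stood in the same order as in 28 of the 45 members. *Cpn2* was the brown marker with an adjusted p under 0.05 (−1.79 ± 0.21, adjusted p 0.00551). Of the 8 brown markers, 7 were lower (67.0% of all genes) and 1 was higher, with log2 fold changes from −2.81 to 1.81. Of 7 white adipocyte markers, all were higher at PN98, *Adipoq* and *Cidec* with an adjusted p under 0.05 (0.0111 and 0.00213) and 4 of the 7 under either scaling, and their sums were 14544 to 30290 FPKM at PN21 and 36879 to 56075 FPKM at PN98. In either direction, 853 of all 16102 genes had an adjusted p under 0.05 (limma). The number was 827 of 16079 with scaling to nuclear genes and 1227 of 16015 with median of ratios scaling.

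Lymphocyte markers ran against the members among the PN98 mice. Their summed FPKM over 8 genes was 608, 767, 1333 and 1023 at PN21 and 1294, 254, 376 and 32.6 at PN98. Mice m138 and m35, with the lowest complex I levels of their age, had the highest sums. The other PN21 mice did not follow this, since m145, the highest PN21 mouse in 33 members, had a larger sum than m1 and m49. Of the 8 genes, all were lower at PN98 (67.0% of all genes), 3 with an unadjusted p under 0.05 (19.0% of all genes). None of the 8 had an adjusted p under 0.05 (limma). Skeletal muscle markers were 36.1 to 759 FPKM in sum over 8 genes at PN21 and 560 to 3880 FPKM at PN98, all 8 higher with an unadjusted p under 0.05, and *Actn3*, *Atp2a1* and *Tcap* with an adjusted p under 0.05 (*Tcap* 3.35 ± 0.66, adjusted p 0.029). Under either scaling, 7 of the 8 muscle markers had an adjusted p under 0.05. The share of all genes higher with an unadjusted p under 0.05 is not given, so the count of 8 has no background here. Sums over 5 macrophage markers were 70.5 to 108 FPKM and 41.2 to 131 FPKM, and sums over 5 epithelial markers 1.87 to 27.2 FPKM and 0.211 to 1.11 FPKM. *Epcam* was the epithelial marker with an adjusted p under 0.05 (−1.16 ± 0.26, adjusted p 0.0422). Under both scalings *Epcam* was below the filter and was not tested. As deposited, the calls of *Actn3*, *Atp2a1*, *Tcap* and *Epcam* were lost when most of the single mice were left out in turn. The part of these cell types in the values of the members was not tested.

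**Figure D4:**
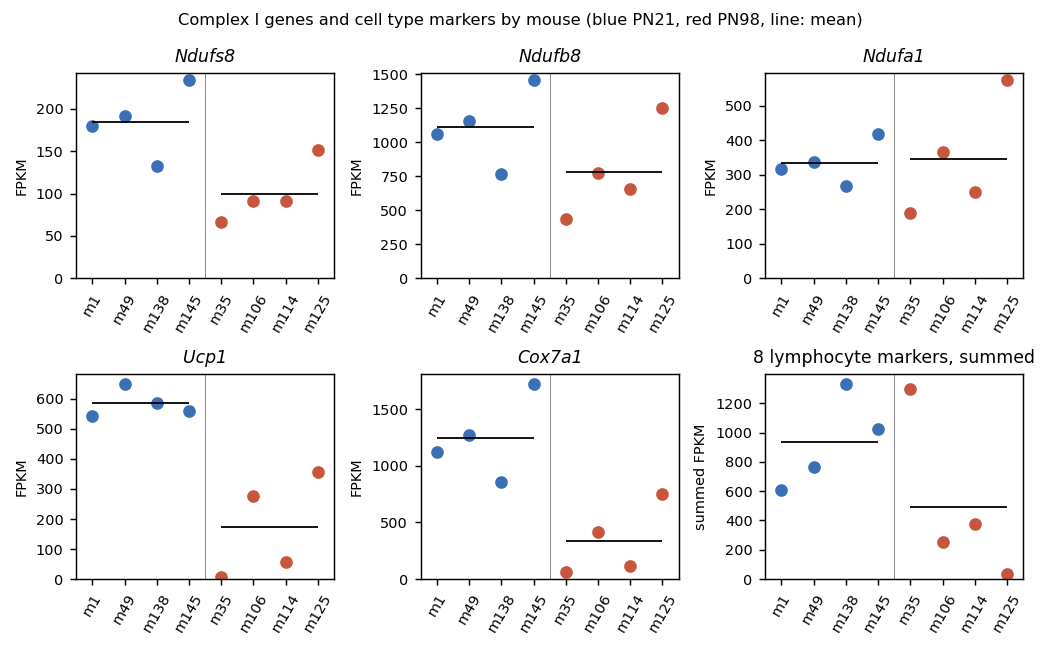
FPKM in each mouse of the complex I genes Ndufs8, Ndufb8 and Ndufa1, the brown adipocyte markers Ucp1 and Cox7a1, and the sum of 8 lymphocyte markers, with the mean per age as a line and axes that start at 0. Mouse m35 is the lowest PN98 mouse in all 5 single genes and has the highest PN98 lymphocyte sum (1294), and m125 is the highest and has the lowest sum (32.6).

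At the level of single transcripts, 110 of the 149 transcripts of the members passed the study's filter. Of these, 97 were lower at PN98 (63.5% of all 23169 transcripts tested were lower), 9 were lower with an unadjusted p under 0.05 (14.8% of all transcripts), and none had an adjusted p under 0.05 (limma, 0.639% of all transcripts were lower with such a p). Their median was −0.50, against −0.24 over all transcripts. The lowest unadjusted p belonged to a retained intron transcript of *Ndufb10* with a mean of 8.31 FPKM (−1.17 ± 0.34, adjusted p 0.138). Read by its transcript with the lowest p, 8 of the 45 genes were lower with an unadjusted p under 0.05, against 21.9% of the 13212 genes with a tested transcript. Read by the most abundant tested transcript, 4 were, against 17.9%. In *Ndufs5* the transcript with the lowest p had the opposite sign to the gene, a log2 fold change of 4.08 ± 2.845 (adjusted p 0.403), with m145 at 0.00493 FPKM and the other 7 mice at 15.9 to 94.0 FPKM.

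The levels of the members rested in part on transcripts that are not annotated as coding. Protein_coding transcripts held 62.3% of the members' summed FPKM, retained introns 14.1%, processed transcripts 13.5% and transcripts subject to nonsense-mediated decay 10.1%. In 13 genes less than 50% was protein_coding, among them *Ndufb8* (31.4%), *Ndufb10* (33.5%), *Ndufa3* (2.91%) and *Ndufc1* (0.962%). The share over all members was alike at both ages, 60.9% to 63.5% at PN21 and 62.2% to 64.1% at PN98. With these transcripts alone, 44 members were tested, 40 were lower (64.6% of all genes) and the median was −0.43, where *Ndufa3*, *Ndufa7*, *Ndufb4* and *Ndufs3* were positive.

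Processed pseudogenes of *Ndufb4*, *Ndufab1*, *Ndufs6* and *Ndufa11* held FPKM of their own, in the mean 175 (*Ndufb4c*), 153 (*Ndufab1-ps*), 214 (*Ndufs6b*) and 46.2 (*Ndufa11b*) against 94.7, 294, 182 and 29.3 FPKM for the parent genes. Reads of such copies can be split between them, so the levels of these 4 members are uncertain. With the copies added to the parents, the median of the members stayed at −0.53.

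**Figure D5:**
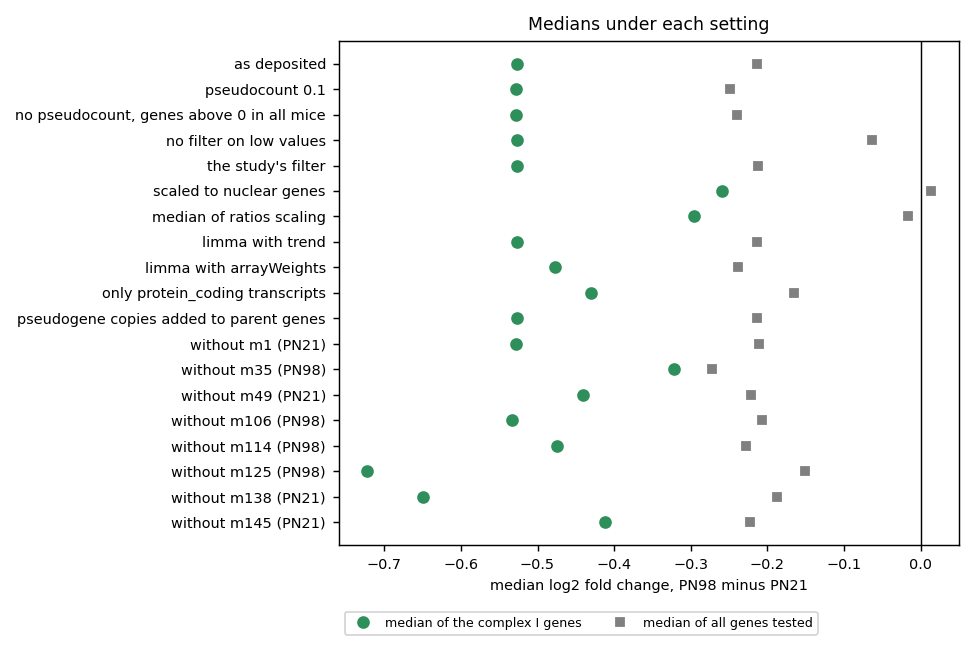
Median log2 fold change (PN98 minus PN21) of the complex I genes (green circles) and of all genes tested (grey squares) under each scaling, filter, weighting and set of mice. The members lie below all genes under each setting shown, by 0.05 without m35 and by 0.57 without m125.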

How the data were processed

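Poly(A)+ RNA of 8 ING WAT samples was sequenced in paired-end reads of 100 bases from a strand-specific kit. The authors mapped reads to mm10 with STAR 2.3.0 after CASAVA 1.8.2 and quantified transcripts with Cufflinks 2.1.1 on a Gencode annotation. They deposited 1 FPKM value per Ensembl transcript and mouse with decimal commas, and named no other scaling in the deposited table. The deposited values are FPKM, not counts, so depth is unknown and no counting interval is given. A second deposited table holds transcripts that the authors selected by p-value, with their own fold changes and p-values, and only its FPKM columns were used. Every column of values for single samples was mapped to a sample.

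In 40380 of 91969 transcripts a decimal mark was lost. It was restored from the deposited average, standard deviation and score, with a single reading for 40330. These columns were read, from their values, as covering 10 samples, 2 of which are not analysed here. All 5006 that also stand intact in the second table were equal. Of 50 with several readings, 23 were read from that table and 27 were left out, among them 1 transcript of *Ndufa10*. Of the members' 149 transcripts, 135 had a lost mark. FPKM was summed per gene of GENCODE vM21 (GRCm38, the same build as mm10), by transcript or, for 1928 transcripts, by the only gene listed; 1304 had no single gene.

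Log2(summed FPKM + 1) was compared with limma 3.58.1 in R 4.3.3 for genes whose FPKM averaged 1 or more, and transcripts as log2 FPKM with the study's filter (above 0 in all 8 mice and a mean above 2 at either age). The log2(FPKM + 1) scale understates changes of low genes. On simulated data for this comparison with 16102 genes, 69.0% of genes changed by 2 on the log2 scale and 24.0% of those changed by 1 were called. Changes as small as those of the members (−0.91 to −0.07) were not simulated. The median standard error was 0.32 over the members and 0.24 over all genes tested. Each library came from a separate mouse. The p-values set the difference between ages against the spread of mice within an age, which limma draws toward that of all genes. They do not account for litter or diet.

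Named are members with an adjusted p under 0.05, the 3 lowest and 2 highest fold changes per role, and the 3 highest and 3 lowest levels. Named too are *Ndufb8*, *Ndufa4*, *Ndufa4l2* and members whose transcript and gene differ in sign. In other lists the genes with an adjusted p under 0.05 are named and, outside the cell type lists, those with the lowest and highest fold change. The remaining members, *Tfam*, *Nrf1*, *Yy1*, *1810043H04Rik* and *Ucp1* were named after their values were seen. 1 member is not reported by name here, though counts and medians include it. Members and lists were chosen with earlier results of these data known. Alternatives were other pseudocounts, filters, scalings, weights and transcripts, and each mouse left out. Sex, litter and batch are not in the labels.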

Additional observations from a re-analysis of the deposited data

Results flagged for a closer look

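Each of the 90 sets of 4 mice (45 members at 2 ages) was searched for a mouse far from the other 3, by Dixon's criterion on log2(FPKM + 1). It was met once, where chance alone meets it in about 1 in 20 sets. At PN98, *Ndufaf7*, a methyltransferase that acts in assembly, stood at 9.47 FPKM in m35 and at 12.4 to 13.0 FPKM in the other 3 mice, and the gap to the nearest of them was 0.845 of the whole range.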

How the results depend on the processing

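No paired analysis was possible because the replicate numbers only count the mice within an age and nothing in the labels ties mice of different age. The alternative that keeps only transcripts with an intact decimal mark left no member to test, and 0 of its 393 genes had an adjusted p under 0.05. The members' median was negative under every alternative run.

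Of all genes tested, 853 had an adjusted p under 0.05, 4650 with arrayWeights and 210 to 3541 with a mouse left out. Among members the count of 0 became 4 with arrayWeights and 0 to 1 with a mouse left out. With arrayWeights, 21.7% of all genes were lower with an adjusted p under 0.05. Members lower with an unadjusted p under 0.05 numbered 11 (19.0% of all genes) and 0 under either scaling (8.97% and 11.6%). With arrayWeights there were 18, and no share of all genes at this unadjusted p is given for that fit, so this count has no background here. With a mouse left out there were 1 to 25, with the shares of all genes given above. Transcripts of members lower with an unadjusted p under 0.05 numbered 9 (14.8% of all transcripts). They numbered 2 with scaling to nuclear genes, 1 with median of ratios scaling and 3 to 29 with a mouse left out. Shares of all transcripts are not given for these alternatives, so their counts have no background here. Of all transcripts, 314 had an adjusted p under 0.05, 108 with a mean above 2 at both ages, 557 without the condition on zeros, 498 with median of ratios scaling, 1572 with arrayWeights and 47 to 1777 with a mouse left out. Members with a transcript lower at an unadjusted p under 0.05 numbered 8 by the lowest p (21.9% of all genes) and 4 by the most abundant transcript (17.9%). Fewer mice enter when 1 is left out, and the cause of the other shifts was not tested.

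Directions turned as follows, none of them with an adjusted p under 0.05 (limma). With scaling to nuclear genes *Ndufa1* (0.20), *Ndufa7* (0.19), *Ndufs5* (0.17), *Ndufb4* (0.044), *Ndufb3* (0.0036), *Ndufaf2* (0.030), *Ndufaf3* (0.015), *mt-Nd1* (0.17), *mt-Nd3* (0.20), *Gabpa* (0.099) and *Yy1* (0.074) were positive. With median of ratios scaling *Ndufa1* (0.16), *Ndufa7* (0.16), *Ndufs5* (0.13), *Ndufb4* (0.0085), *mt-Nd1* (0.13), *mt-Nd3* (0.16), *Gabpa* (0.067) and *Yy1* (0.041) were. With arrayWeights *Ndufa1* (0.096), *mt-Nd1* (0.23) and *mt-Nd3* (0.44) were positive and *Atp5j* (−0.051) negative. With protein_coding transcripts only, an alternative chosen after seeing the data, *Ndufs3* (0.11), *Ndufb4* (0.082), *Ndufa3* (0.27) and *Ndufa7* (0.19) were positive and *Atp5j* (−0.053) negative. With a mouse left out, *Ndufa1* lay between −0.36 and 0.18, *Ndufa7* between −0.26 and 0.14, *Ndufs5* between −0.31 and 0.040, *mt-Nd1* between −0.37 and 0.23, *mt-Nd3* between −0.40 and 0.28 and *Atp5j* between −0.042 and 0.13. *Sqrdl* had an adjusted p of 0.0403 with scaling to nuclear genes and 0.0174 with arrayWeights (limma). Adjusted p-values of *Actn3*, *Atp2a1*, *Tcap* and *Epcam* were above 0.05 in most fits with a mouse left out.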
